A study of Mus musculus with 27 samples.

Results

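Adult substantia nigra pars compacta (SNc) was compared with adult nucleus accumbens (NAc) in cells sorted for the dopamine transporter (DAT). The comparison takes the 6 libraries of these regions at postnatal day 60 (P60), out of 27 in the series. They were 3 of SNc and 3 of NAc, numbered 1, 3 and 4 in each region. All came from untreated C57/BL6 mice, the genotype given for every group, with no transgene, deletion or agent named in the labels. Brain tissue was dissected, dissociated into single cells and sorted by flow cytometry for DAT+ cells, and RNA was measured by SMART-seq2, a full-length protocol for low inputs. The other groups used here were SNc and NAc at P7 and P30 and the ventral tegmental area (VTA) at P60, each with 3 libraries. The design used 5 mice per age. The labels tie no library to a mouse, so the 9 libraries of an age must share mice. Standard errors (SE) of fold changes and p-values here reflect only how far all 27 libraries scatter within their groups. They do not measure the spread of the 6 compared libraries alone, and the scatter may be technical.

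Dopaminergic neurons of the SNc have their cell bodies in the midbrain and send axons to the striatum. The NAc, the ventral striatum, receives dopaminergic axons and consists mainly of GABAergic projection neurons. Dopamine is made by tyrosine hydroxylase (Th) and aromatic amino acid decarboxylase (Ddc), loaded into vesicles by Slc18a2 and taken up again by DAT, the product of Slc6a3. Microglia, the resident macrophages of the brain, populate both regions and carry complement C1q, P2ry12 and Tmem119.

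The 6 libraries held 9838685 to 13283346 reads in genes. Genes with at least 1 read numbered 17117, 11962 and 14707 in NAc and 17436, 12736 and 17108 in SNc, so replicate 3 had the fewest in each region. Mitochondrially encoded genes took 18.5% to 22.8% of the reads in NAc and 11.8% to 15.2% in SNc, ranges that do not overlap. Rank correlations across genes were 0.694 to 0.802 among SNc libraries, 0.589 to 0.693 among NAc libraries and 0.579 to 0.683 between the regions. One further library of the joint fit, VTA P30 replicate 3, stood apart, with 6786 genes detected and values deposited in another unit. Counts are therefore also given without it, and without 4 libraries picked by hand as standing apart. These were replicate 3 of NAc P60, of SNc P60 and of VTA P30, and replicate 2 of VTA P60. Each had the fewest genes of its group, but no cutoff defines the set. SNc P30 replicate 1 was kept at 12437 genes, fewer than SNc P60 replicate 3 (12736) and VTA P60 replicate 2 (12914). Levels below are reads per kb after scaling each library to 1000000 reads in genes, listed in the order of replicates 1, 3 and 4.

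The sorted libraries held little dopaminergic RNA and much microglial RNA in both regions. Slc6a3 (chromosome 13, 73536747 to 73578672 on GRCm38/mm10) was at 3.25, 0 and 0 in NAc and at 1.35, 0.326 and 2.48 in SNc. The regions overlapped, and 3 reads would have given 0.0653 to 0.0882. Th was at 7.17, 20.1 and 3.28 in NAc and at 4.34, 0 and 19.9 in SNc, so that 1 SNc library had no Th read. Pitx3, which midbrain dopaminergic neurons need for their survival, was at 0 in every one of the 6 libraries (3 reads correspond to 0.148 to 0.2). C1qa, a chain of complement C1q, was at 1918, 487 and 6463 in NAc and at 6167, 3135 and 7861 in SNc. The labelled cell type, dopaminergic neuron, was thus not borne out by its defining markers in either region, and the groups are called by region and sort below.

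**Figure D1:**
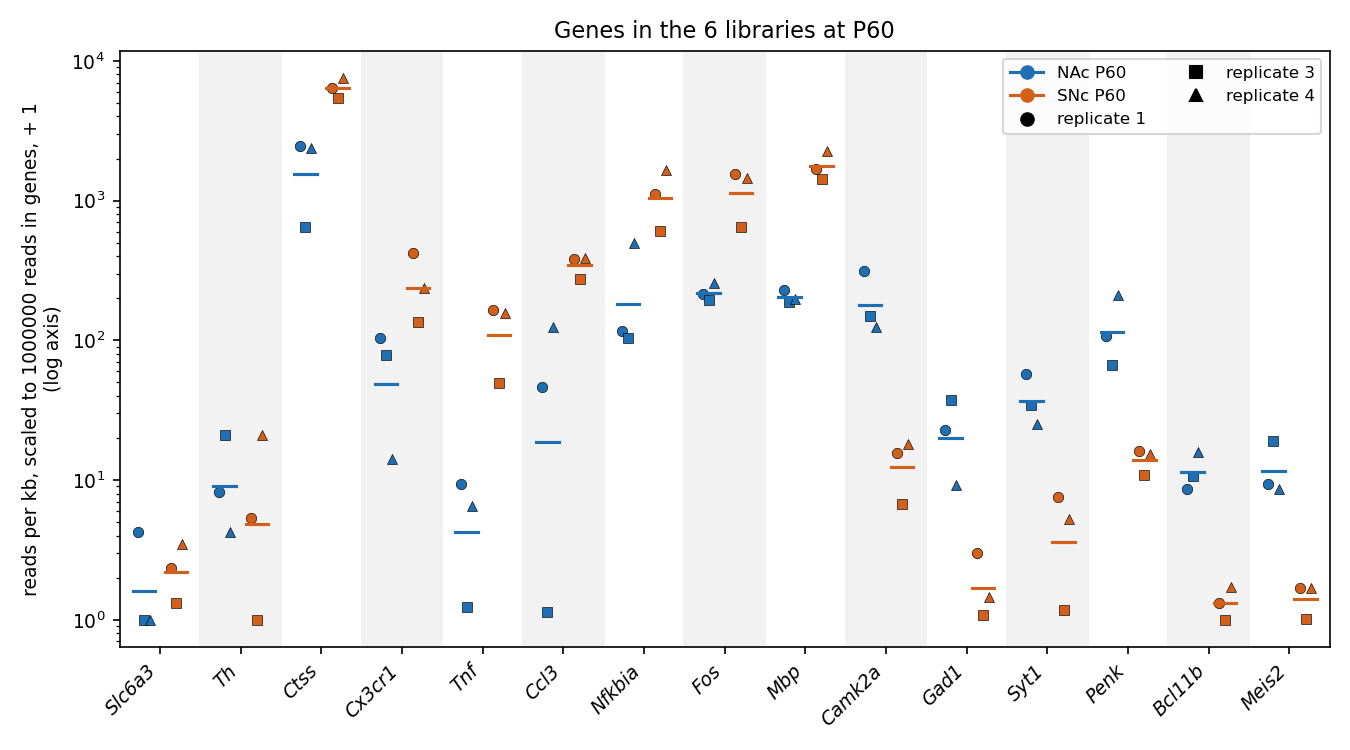
Levels of 15 genes in the 6 libraries at P60, as reads per kb, scaled to 1000000 reads in genes, plus 1 on a log axis. Each point is a library (circle, square and triangle for replicates 1, 3 and 4), blue for NAc and orange for SNc, and the bar is the mean of the log values. Slc6a3 and Th overlap between the regions, while Ctss, Mbp, Camk2a and Bcl11b do not.

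None of the 13 genes of dopamine synthesis, transport and release passed the test in either direction, at a median log2 fold change of 0.38 (SNc minus NAc). Slc6a3 had a log2 fold change of 0.45 ± 0.92 (SE, n = 3 per region) and limma adjusted p = 0.9, and Th one of -0.91 ± 0.96 (adjusted p = 0.73). Ddc came closest, at 5.45, 0 and 0.889 in NAc and 8.41, 6.88 and 8.94 in SNc (log2 fold change 1.97 ± 0.63, adjusted p = 0.0952). All 3 SNc libraries lay above those of NAc for Ddc, and for Aldh1a1, the retinaldehyde dehydrogenase that marks a ventral group of SNc neurons, at 20.99, 3.27 and 5.70 against 40.2, 48.4 and 24.5. Aldh1a1 missed the threshold (adjusted p = 0.188). Of 9 midbrain dopaminergic transcription factors, Nr4a2 and Otx2 passed the filter on low values and neither was called. Nr4a2 was at 2.78, 9.13 and 1.86 in NAc and 1.00, 0.099 and 4.49 in SNc, and Otx2 at 1.87, 0 and 1.09 against 0.482, 2.44 and 0. Among 12 genes enriched in SNc dopaminergic neurons, 1 passed, Lmo3, and it was lower in SNc, at 3.77, 12.3 and 2.53 in NAc and 0.356, 0 and 0.239 in SNc (adjusted p = 0.00826). Slc6a3 and Th overlapped between the regions, and neither was called.

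Across 18888 genes tested, 127 were higher in SNc (0.672% of those tested) and 344 were lower (1.82%) at a limma adjusted p under 0.05, and these are the genes referred to as called. In 7.12% of the genes every SNc library lay above every NAc library, and in 8.19% every one lay below. The counts became 436 higher and 583 lower without VTA P30 replicate 3, and 338 and 402 without the 4 libraries that stood apart. All 471 calls kept their sign in each alternative in which they were tested. This says little, since dropping libraries outside the comparison cannot change a sign. Nor can a leave-out where the regions do not overlap. Of 56 named genes called, 21 stayed called in all 6 leave-outs. Leaving out 1 of the 6 libraries at a time gave 57 to 163 higher and 101 to 449 lower. Both counts were smallest without SNc P60 replicate 3. With only the 2 regions at P60 in the fit no gene was called, although 2073 genes had an unadjusted p under 0.05, against 2862 with all 27 libraries.

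**Figure D2:**
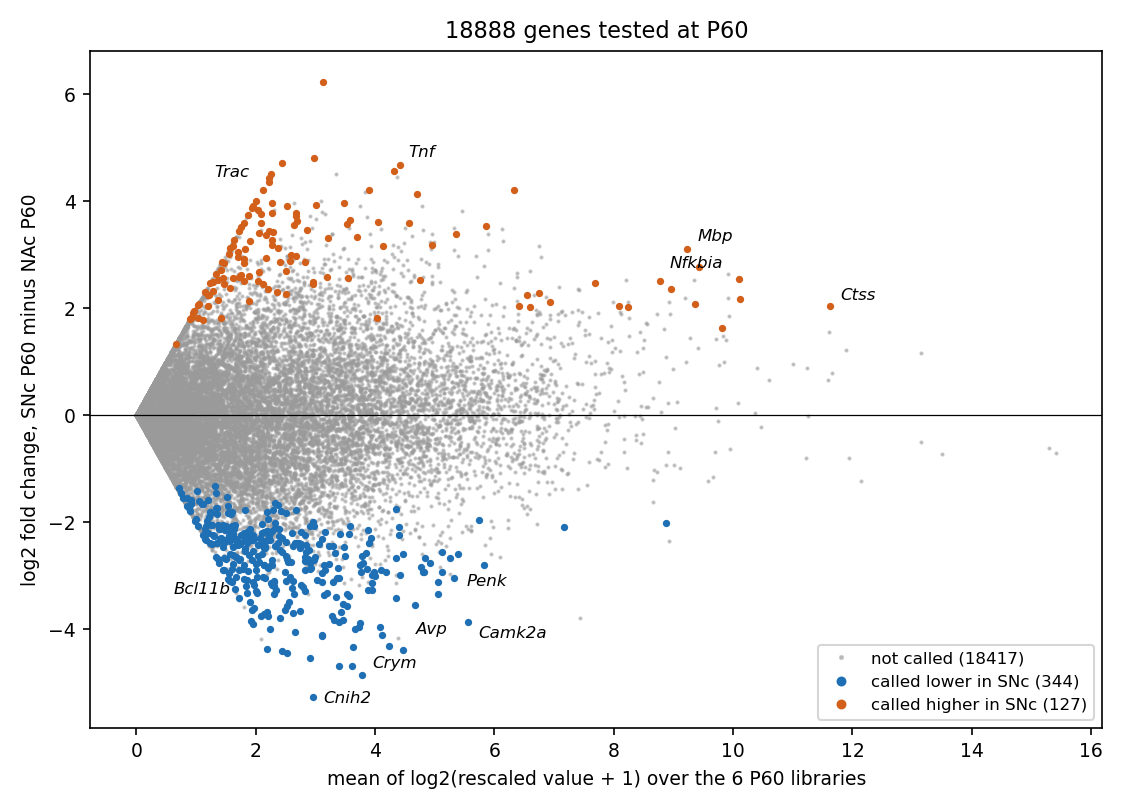
Log2 fold change (SNc P60 minus NAc P60) against the mean of log2(rescaled value + 1) over the 6 libraries, for 18888 genes. Orange points are the 127 genes called higher in SNc, blue the 344 called lower and grey those not called. Most calls have low mean levels, with Ctss, Nfkbia and Mbp among the abundant genes called higher.

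Several microglial genes were higher in SNc. Of 19 microglia and macrophage genes tested, 3 were called higher and none lower, and 19 had positive log2 fold changes, with a median of 1.85 against 0 over all genes tested. Their summed level was 11800, 6305 and 21640 in NAc and 33260, 26890 and 35260 in SNc, without overlap. In bulk libraries of this kind fewer microglia and less microglial RNA per cell cannot be told apart. Without VTA P30 replicate 3 the list had 10 members called higher, and without the 4 libraries 6. It had 1 to 8 when single libraries of the comparison were left out, and 0 on the FPKM scale as deposited. The fit on that scale still held VTA P30 replicate 3 in its other unit. Calls lost on the deposited scale, here and below, therefore cannot be credited to the SNc and NAc libraries.

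Ctss, the microglial cathepsin S, was at 2469, 644 and 2362 in NAc and at 6378, 5457 and 7557 in SNc (log2 fold change 2.04 ± 0.45, adjusted p = 0.0155). Its call was lost without NAc replicate 3 or SNc replicate 4 (highest adjusted p = 0.0651). Cx3cr1, the receptor for the neuronal chemokine fractalkine, was at 103, 77.9 and 13.2 against 422, 134 and 237 (log2 fold change 2.29 ± 0.62, adjusted p = 0.0481). Its call was lost in 4 of 6 leave-outs, all but those of NAc replicates 1 and 3.

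The other well-known microglial genes missed the threshold. P2ry12, a purinergic receptor of surveying microglia, was at 642, 451 and 70.3 in NAc and 1896, 1317 and 791 in SNc (adjusted p = 0.222). Tmem119 was at 716, 758 and 250 against 2295, 1958 and 1437 (adjusted p = 0.113). Neither gene overlapped between the regions. C1qa did overlap, with NAc replicate 4 above the lower 2 SNc libraries (log2 fold change 1.55 ± 0.71, adjusted p = 0.292). Genes of homeostatic microglia had 3 of 19 called higher, among them Selplg, the P-selectin ligand, at 216, 156 and 97.9 against 731, 536 and 573. Apoe, a lipid carrier raised in disease-associated microglia, was at 2779, 1648 and 3273 in NAc and 2449, 1714 and 3418 in SNc and overlapped. Of 18 genes of that state 1 was called higher, Ctsd.

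Markers of other immune cells held few calls. None of 12 genes of border-associated macrophages was called, with a median log2 fold change of 0.50 and a summed level of 110, 12.1 and 577 in NAc and 121, 139 and 234 in SNc. Of 8 monocyte and neutrophil genes tested, only S100a8, a neutrophil calcium-binding protein, was called, and it was lower in SNc (11.9, 0.574 and 27.9 against 0.879, 0 and 0.126, adjusted p = 0.0486). Among 5 genes of T, B and NK cells tested, Trac, the constant region of the T cell receptor alpha chain, was called higher. The defining T cell genes Cd3e, Cd3g and Cd8a were at 0 in all 6 libraries.

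Several genes of the lysosome, where microglia degrade what they take up, were higher in SNc. All SNc libraries lay above all NAc libraries for 14 of the 24 tested, against 7.12% of all genes tested. Of the 24, 5 were called higher and none lower (median log2 fold change 1.65). Among these were Ctss, Lgmn, Ctsd and Ctsz. Lgmn, the asparaginyl endopeptidase legumain, was at 906, 502.8 and 310 in NAc and 2867, 2045 and 2173 in SNc (log2 fold change 2.16 ± 0.48, adjusted p = 0.0161). Ctsd, the aspartic protease cathepsin D, was at 620, 205 and 257 against 1736, 747 and 1886 (log2 fold change 2.07 ± 0.48, adjusted p = 0.0201). Hexa, the alpha subunit of a lysosomal hydrolase, missed the threshold narrowly (adjusted p = 0.0529) and was likewise above NAc in every SNc library. The lysosomal members that were not higher include Lamp1, at 86.1, 111 and 123 in NAc and 54.1, 105 and 53.1 in SNc. The summed level of the microglia list rises in the same libraries, and its part in the lysosomal difference was not tested. Without VTA P30 replicate 3, 12 lysosomal members were called higher and 1 lower, and 14 were called higher without the 4 libraries. The leave-outs gave 2 to 6, and the deposited FPKM scale gave 0.

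Receptors and ligands of microglial regulation were also among the calls. C3ar1, the receptor for the complement fragment C3a, was at 3.55, 0.971 and 10.8 in NAc and at 61.6, 57.0 and 51.2 in SNc (log2 fold change 3.60 ± 0.77, adjusted p = 0.0121). It was the only one of 13 complement genes called, and C3 itself was at or near 0 in every library. The C3ar1 call was lost on the deposited FPKM scale, without NAc replicate 3, without SNc replicate 3 and without the 4 libraries. Of 16 TGF-beta pathway genes, 2 were called higher, at a list median of 0.06, and the leave-outs gave 0 to 2. Tgfb1, the ligand, was at 0, 0.138 and 0 in NAc and 2.6, 13.9 and 5.02 in SNc (adjusted p = 0.0148). Nrros, which anchors latent TGF-beta on microglia, was at 20.5, 17.2 and 2.57 against 64.8, 127 and 30.8 (adjusted p = 0.035). Its call was lost without NAc replicate 4, SNc replicate 1 or SNc replicate 3. The receptors Tgfbr1 and Tgfbr2 overlapped between the regions. None of 18 interferon response genes and none of 15 antigen presentation genes was called. Without VTA P30 replicate 3, 2 interferon response and 4 antigen presentation genes were called higher, and without the 4 libraries 1 and 5.

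**Figure D3:**
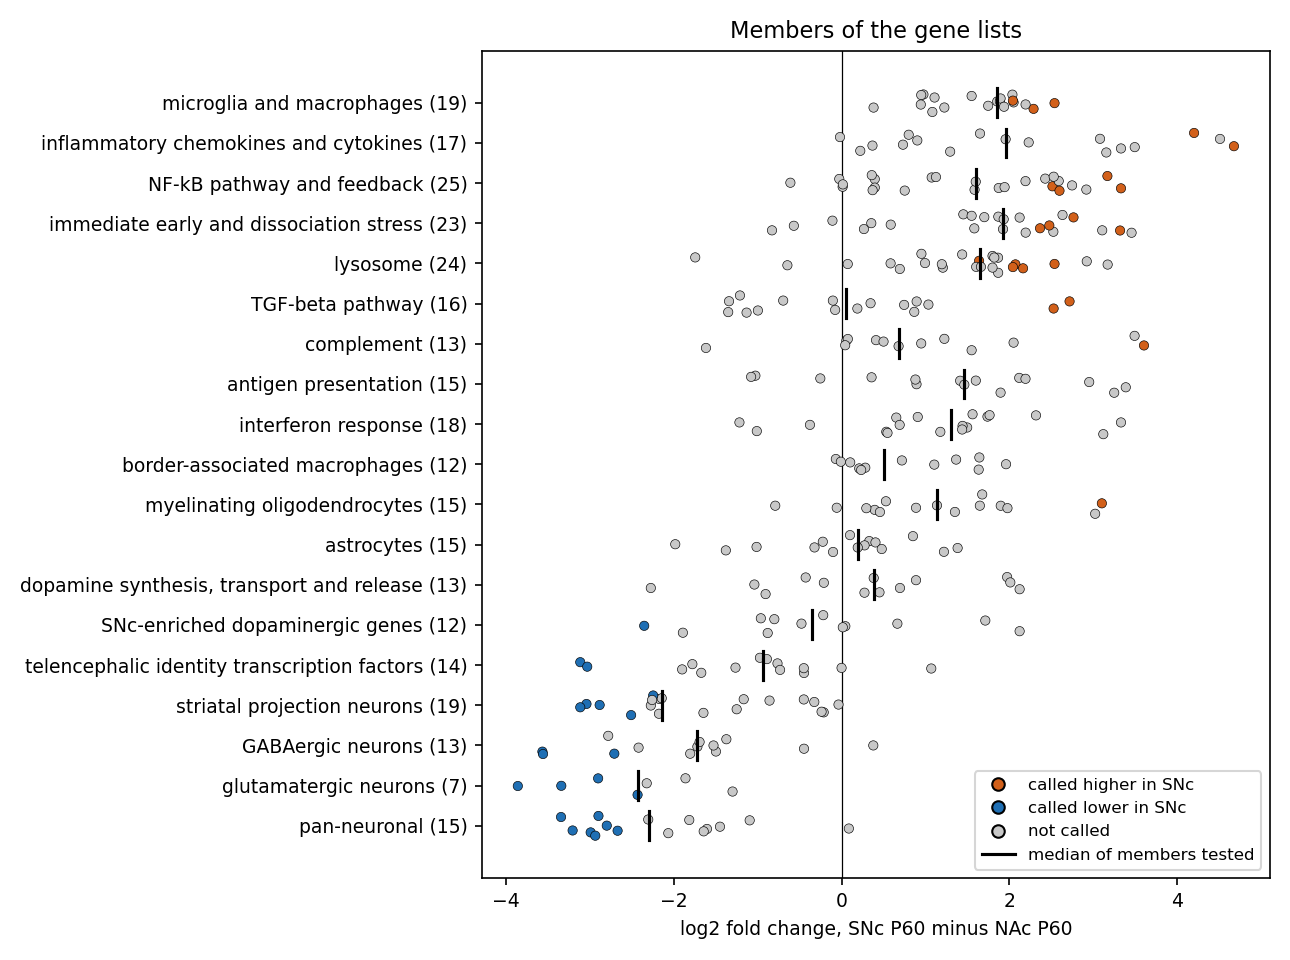
Log2 fold change (SNc P60 minus NAc P60) of the members of 19 gene lists, 1 point per gene with the number tested in parentheses. Orange marks genes called higher in SNc, blue genes called lower and grey genes not called, and the black bar is the median. Immune, lysosomal and immediate early lists lie to the right of 0, and neuronal lists to the left.

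Several inflammatory signalling genes were higher in SNc. NF-kB is a transcription factor held in the cytoplasm by inhibitors such as Nfkbia until a signal such as tumour necrosis factor degrades them. Nfkbia, Tnfaip3 and Nfkbiz are induced by NF-kB and limit or shape its output. Of 25 NF-kB genes tested, 4 were called higher and none lower (median log2 fold change 1.60). Of 17 chemokines and cytokines, 2 were called higher and none lower (median 1.96). Of the 17, 7 were above NAc in every SNc library, against 7.12% of all genes tested. The leave-outs gave 0 to 3 NF-kB genes and 0 to 2 chemokines and cytokines, both 0 without SNc replicate 1.

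Promoter sequence is shown for Nfkbia and Tnfaip3, the called genes of these lists whose window held a match to the NF-kB motif. The window is the 250 bases before the RefSeq start (GRCm38.p6), and capitals mark matches to the 10-letter motif GGGANNNNCC on either strand. It lies at chr12:55492648-55492897 on the minus strand for Nfkbia and at chr10:19015411-19015660 on the minus strand for Tnfaip3.
Nfkbia: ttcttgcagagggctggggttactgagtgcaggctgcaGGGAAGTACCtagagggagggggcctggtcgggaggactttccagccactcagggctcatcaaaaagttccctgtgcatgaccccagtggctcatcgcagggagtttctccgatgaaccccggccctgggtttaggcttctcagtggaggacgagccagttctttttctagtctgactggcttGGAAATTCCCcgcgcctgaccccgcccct
Tnfaip3: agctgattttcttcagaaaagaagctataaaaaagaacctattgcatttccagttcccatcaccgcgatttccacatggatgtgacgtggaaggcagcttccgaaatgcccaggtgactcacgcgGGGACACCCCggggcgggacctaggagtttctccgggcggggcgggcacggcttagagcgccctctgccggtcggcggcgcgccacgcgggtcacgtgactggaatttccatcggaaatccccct
The motif occurred in 17.3% of 27025 promoters of that length, in 16 of the 32 promoters available for the 43 listed NF-kB and cytokine genes, and in 2 of 5 available for the 6 called genes. Nfkbia held 2 matches, the nearer beginning 29 bases before the start, and Tnfaip3 held 1, beginning 125 bases before it. Tnf, Ccl3 and Icam1 held no match to these letters in this window. A match is a run of letters, not a measured binding site.

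Tnf (chromosome 17, 35199381 to 35202007) was at 8.36, 0.243 and 5.55 in NAc and at 163, 48.5 and 156 in SNc. It had the largest increase by the rule for named genes (log2 fold change 4.68 ± 1.23, adjusted p = 0.0398), but stayed called in only 1 of 6 leave-outs (without NAc replicate 1), with a highest adjusted p of 0.148. Ccl3, a chemokine of activated microglia, was at 45.7, 0.13 and 123 in NAc and 381, 275 and 385 in SNc (log2 fold change 4.20 ± 1.03, adjusted p = 0.0283). NAc replicate 3, with few genes detected, was lowest for both. Without it the log2 fold change of Ccl3 was 2.18, and Ccl3 lost its call in 4 of 6 leave-outs, this one among them (highest adjusted p = 0.0956). The neighbouring chemokine Ccl4 was at 49.3, 1.51 and 366 against 557, 121 and 479, overlapped and was not called (adjusted p = 0.345).

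Nfkbia (chromosome 12, 55489410 to 55492647) was at 117, 102 and 498 in NAc and at 1120, 608 and 1651 in SNc (log2 fold change 2.51 ± 0.58, adjusted p = 0.0201). Tnfaip3, the ubiquitin-editing enzyme A20, was at 1.35, 0 and 0.436 against 9.45, 11.4 and 4.80 (log2 fold change 2.60 ± 0.64, adjusted p = 0.0288). Nfkbiz, a nuclear member of the inhibitor family, was at 4.35, 1.49 and 4.15 against 43.0, 33.6 and 44.8 (log2 fold change 3.33 ± 0.76, adjusted p = 0.0196). The regions did not overlap for any of the 3, nor for the adhesion molecule Icam1 (14.7, 0.0913 and 10.8 against 73.9, 36.5 and 51.4). The subunits of NF-kB overlapped between the regions. Rela was at 11.4, 23.6 and 7.46 against 15.7, 17.5 and 18.0, and Nfkb1 at 4.04, 1.80 and 5.95 against 10.5, 1.67 and 6.25. Icam1, Nfkbia, Nfkbiz and Tnfaip3 each lost the call in 4 of the 6 leave-outs.

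Several immediate early genes, which neurons, glia and dissociated cells switch on within minutes of a stimulus, were higher in SNc. Of 23 tested, 4 were called higher and none lower (median log2 fold change 1.92). In 14 of the 23 every SNc library was above every NAc library, against 7.12% of all genes tested. The summed level of the 23 was 1731, 4059 and 1285 in NAc and 11210, 10790 and 8868 in SNc. Without VTA P30 replicate 3, 10 were called, and 12 without the 4 libraries. The leave-outs gave 1 to 4. On the deposited FPKM scale none was called, at adjusted p from 0.1 (Junb) to 0.198 (Klf2) for the 4 called genes, and none was called with a pseudocount of 0.1. The labels name a dissociation step for all groups, and its part in the difference was not tested. None of 15 heat shock protein genes was called, against 3 higher without VTA P30 replicate 3 and 3 higher and 1 lower without the 4 libraries. Hspa8, a constitutive chaperone, was at 217, 239 and 126 in NAc and 295, 206 and 253 in SNc.

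Fos, a subunit of the AP-1 transcription factor (chromosome 12, 85473890 to 85477273), was at 212, 192 and 257 in NAc and at 1544, 642 and 1455 in SNc (log2 fold change 2.37 ± 0.60, adjusted p = 0.035). Its call held in 2 of 6 leave-outs, with a highest adjusted p of 0.129. Its promoter, in the same window before the start (chr12:85473640-85473889, plus strand), is shown because it holds the core TGACGT of the cyclic AMP response element, in capitals, which 6.56% of all promoters and 5 of 19 of those of listed immediate early genes hold. Among the called genes it was found in 1 of 3 windows, and those of Junb and Klf2 held no match to these letters.
Fos: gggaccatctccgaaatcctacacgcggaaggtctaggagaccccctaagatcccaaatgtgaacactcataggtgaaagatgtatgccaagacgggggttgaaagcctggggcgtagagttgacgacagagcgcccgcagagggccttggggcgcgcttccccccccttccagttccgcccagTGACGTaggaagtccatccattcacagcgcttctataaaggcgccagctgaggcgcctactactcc
Junb, its partner, was at 206, 1281 and 68.3 against 1640, 2859 and 1227 (adjusted p = 0.0308), where NAc replicate 3 passed the lowest SNc library. Ier2 was at 78.2, 154 and 52.4 against 477, 489 and 482, and Klf2, a zinc finger factor of quiescence, at 3.83, 0.216 and 3.32 against 18.9, 28.7 and 41.6. The called genes were joined, without a call, by Dusp1 (331, 941 and 183 against 2547, 3459 and 1558, adjusted p = 0.0784) and Jun (211, 522 and 178 against 1754, 1565 and 1370, adjusted p = 0.0758). Neither overlapped. Jund was the reverse, at 15.5, 11.3 and 25.3 against 9.51, 10.5 and 6.88.

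Of the 12 largest increases, 2 stayed called in all 6 leave-outs, Trac and Arl11. Trac (chromosome 14, 54220521 to 54224206) was at 0.0805, 0 and 0 in NAc and at 11.1, 39.4 and 18.5 in SNc (log2 fold change 4.37 ± 0.63, adjusted p = 0.000931). Arl11, an Arf-like GTPase of macrophages (chromosome 14, 61309753 to 61311936), was at 2.00, 0 and 0.0825 against 10.2, 37.2 and 25.2 (log2 fold change 3.92 ± 0.73, adjusted p = 0.00518). Gpr84, a fatty acid receptor induced on activated microglia, was at 18.6, 0.346 and 8.04 against 87.8, 102 and 143 (log2 fold change 4.14 ± 1.00, adjusted p = 0.0265). Glipr1 had no read in NAc and was at 14.9, 17.5 and 12.95 in SNc, which puts it at least 78.1-fold higher against a floor of 3 reads per library. The other members of this set were Cyb561a3, Slc38a5, Igsf1, Pecr, Rnf125 and Tcta. Slc38a5, an amino acid transporter, was at 0, 0 and 0.0402 against 28.8, 5.63 and 32.0. Igsf1 was at 2.38, 0.552 and 3.19 against 33.0, 74.2 and 32.2. Cyb561a3, Glipr1 and Tcta overlap other protein-coding genes on the opposite strand, and SMART-seq2 does not mark strand, so their reads may be shared.

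Many neuronal genes were lower in SNc. Of 15 pan-neuronal genes 7 were called lower and none higher, with a median log2 fold change of -2.30. The leave-outs gave 3 to 7 called lower, and a pseudocount of 0.1 gave 0. Of the 15, 11 lay below NAc in every SNc library, against 8.19% of all genes tested. The summed level of the 15 was 732, 583 and 410 in NAc and 91.9, 78.5 and 142 in SNc. Syt1, the calcium sensor of synaptic vesicle release (chromosome 10, 108497650 to 109010982), was at 56.0, 33.2 and 24.3 in NAc and at 6.58, 0.174 and 4.30 in SNc (log2 fold change -3.34 ± 0.62, adjusted p = 0.00478). Stmn2, a tubulin-binding protein of neurites, was at 24.8, 16.6 and 19.8 against 1.27, 0.115 and 3.75. Eno2, neuron-specific enolase, was at 47.1, 42.6 and 19.8 against 2.31, 6.89 and 3.97. Each of these 3 stayed called whichever library was left out. Syp, synaptophysin, was at 51.3, 42.7 and 43.1 against 7.78, 1.54 and 9.92, and lost its call without SNc replicate 3. Rbfox3, Snap25 and Thy1 were also called lower.

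Genes of striatal projection neurons were lower in SNc, in all 19 members tested by sign and in 5 by the test (median log2 fold change -2.14). Arpp21, a phosphoprotein of these neurons (chromosome 9, 112065091 to 112235938), was at 25.1, 15.7 and 18.4 in NAc and 1.20, 2.13 and 2.04 in SNc (log2 fold change -2.88 ± 0.42, adjusted p = 0.000977). Penk, which encodes the enkephalins of the indirect pathway, was at 106, 65.4 and 210 against 15.1, 9.84 and 14.5 (log2 fold change -3.04 ± 0.69, adjusted p = 0.0196). Pde10a, the striatal phosphodiesterase, was at 7.72, 9.74 and 5.48 against 0.261, 0.0813 and 1.42. Penk lost its call without NAc replicate 4 or SNc replicate 3, and Pde10a without SNc replicate 3. The dopamine receptors missed the threshold. Drd1 was at 4.36, 1.51 and 0 against 0, 0 and 0, and Drd2 at 0, 26.0 and 10.1 against 0, 0 and 1.65. Ppp1r1b, which encodes DARPP-32, was at 78.9, 125 and 105 against 32.0, 15.1 and 22.2, without overlap and without a call (adjusted p = 0.216).

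The regional transcription factors that passed the test were 2 of 14 telencephalic ones, both lower in SNc. Bcl11b, or Ctip2, which specifies striatal projection neurons (chromosome 12, 107910403 to 108003602), was at 7.59, 9.75 and 14.9 in NAc and at 0.326, 0 and 0.713 in SNc (log2 fold change -3.11 ± 0.49, adjusted p = 0.00169). Meis2, a homeobox factor of the striatum, was at 8.45, 18.0 and 7.67 against 0.675, 0.0134 and 0.677 (log2 fold change -3.03 ± 0.50, adjusted p = 0.00244). Both stayed called in all 6 leave-outs. None of 7 midbrain and hindbrain factors tested was called, although Gata2 and Tal1 were above NAc in all 3 SNc libraries, Gata2 at 0.293, 0 and 0.134 against 1.07, 3.78 and 2.48.

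The lists named for GABAergic and glutamatergic neurons followed the pan-neuronal genes in direction. Members such as Camk2a, Nrgn and Cck are not particular to a single transmitter type, so the counts do not tell the types apart. Of 13 GABAergic genes 3 were called lower (median log2 fold change -1.72), and of 7 glutamatergic genes 4 (median -2.43). With a pseudocount of 0.1 these counts were 1 and 0. Gad1, which makes GABA, was at 21.7, 36.2 and 8.27 in NAc and 2.01, 0.0842 and 0.447 in SNc (log2 fold change -3.57 ± 0.65, adjusted p = 0.00478). Camk2a, the alpha subunit of the calcium/calmodulin kinase, was at 311, 149 and 123 against 14.7, 5.75 and 17.0 (log2 fold change -3.86 ± 0.65, adjusted p = 0.00277). Nrgn, neurogranin, was at 126, 58.0 and 158 against 12.6, 7.75 and 8.68. These 3 stayed called in all leave-outs. Slc17a7, the vesicular glutamate transporter of cortical neurons, was at 34.8, 24.6 and 6.83 against 3.83, 0.164 and 2.06 (adjusted p = 0.0114). Cck and Calb1 were called lower too, and Calb1 lost its call in 5 of 6 leave-outs and Cck in 4.

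**Figure D4:**
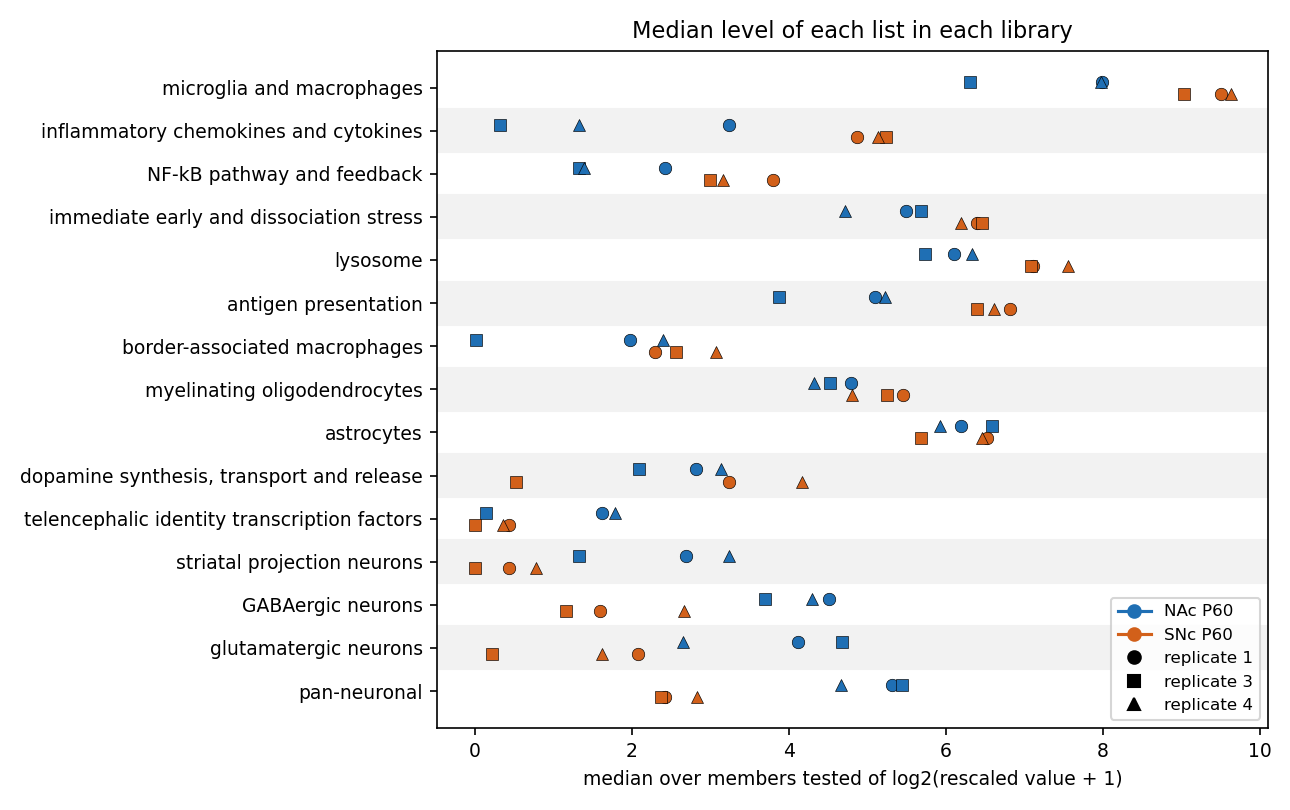
Median over the tested members of log2(rescaled value + 1) in each library, for 15 gene lists. Blue is NAc and orange SNc, with symbols for replicates 1, 3 and 4. The regions separate for the microglia, lysosome and pan-neuronal lists and overlap for the astrocyte and dopamine lists.

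Of the 12 largest decreases, 8 stayed called in all leave-outs, several of them genes of neuronal signalling and synapses. Cnih2, an auxiliary subunit of AMPA receptors (chromosome 19, 5092868 to 5098521), was at 52.7, 48.8 and 41.6 in NAc and at 0.246, 0.39 and 0.142 in SNc (log2 fold change -5.27 ± 0.65, adjusted p = 0.000243). Crym, a thyroid hormone-binding protein of striatal neurons, was at 60.6, 46.5 and 136 against 1.83, 0.118 and 4.29 (log2 fold change -4.85 ± 0.77, adjusted p = 0.00196). Gng7, a G protein subunit of striatal dopamine and adenosine receptor signalling, was at 44.0, 96.2 and 55.0 against 0.107, 3.97 and 1.55. Ddn, dendrin, a postsynaptic protein, was at 65.0, 66.0 and 32.9 against 1.18, 0 and 3.01. Hpca, the calcium sensor hippocalcin, was at 123, 64.7 and 73.0 against 7.62, 0.0275 and 7.56. Lrrc10b was at 21.9, 35.8 and 9.50 in NAc with no read in SNc, at least 153-fold lower against a floor of 3 reads per library. Nap1l2 and Camkv were the other 2 that stayed called. Avp, Gh, Ppp1r1a and Tceal6 lost their calls in 1 or more leave-outs, Gh and Ppp1r1a without SNc replicate 3. Cnih2 overlaps Yif1a on the opposite strand, and Tceal6 has close paralogues that may share its reads.

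Of 15 myelin genes 1 was called, Mbp, higher in SNc. Mbp, myelin basic protein, was at 230, 187 and 196 in NAc and at 1670, 1432 and 2252 in SNc (log2 fold change 3.10 ± 0.52, adjusted p = 0.00277), and stayed called in all leave-outs but not on the deposited FPKM scale (adjusted p = 0.0557). Mobp, a further myelin protein, was at 47.7, 37.5 and 43.4 against 222, 140 and 136 without a call (adjusted p = 0.229). No astrocyte gene of 15 was called. Their summed level was 2480, 3719 and 2539 in NAc and 2369, 3556 and 2415 in SNc, nearly the same numbers in each region. Nor was any of 11 oligodendrocyte precursor, 14 endothelial or 19 cell cycle genes. Of 11 mural and fibroblast genes 1 was called, Pdgfrb, lower in SNc.

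Genes of energy metabolism and protein synthesis showed no call. The 13 mitochondrially encoded genes all had negative log2 fold changes (median -0.80). Of these, 5 lay below NAc in every SNc library, as did 8.19% of all genes tested. Others overlapped, among them mt-Cytb, at 39180, 61220 and 50460 in NAc and 24580, 65420 and 21160 in SNc. None of 43 nuclear oxidative phosphorylation genes and none of 50 cytosolic ribosomal protein genes was called. Without VTA P30 replicate 3, 3 oxidative phosphorylation and 2 mitochondrially encoded genes were called lower, and without the 4 libraries 6 and 1. With voom, an alternative fit on recovered reads, 2 and 6 were called lower. Over all 18888 genes tested, these 3 settings called 583, 402 and 1203 lower.

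For several microglial and neuronal genes the regional difference at P60 was not that of P7. Of 18888 genes, the SNc minus NAc difference at P60 differed from that at P7 for 174 (0.921%) and from that at P30 for 16 (0.0847%), tested as a difference of differences. Among these were 4 of the 19 microglia genes and 4 of the 15 pan-neuronal genes against P7. The median log2 fold change of the microglia list was -1.07 at P7, 0.47 at P30 and 1.85 at P60. That of the pan-neuronal list was 0.62, -1.37 and -2.30. Cx3cr1 had a log2 fold change of -2.17 at P7, -0.73 at P30 and 2.29 at P60, and Gad1 one of 1.93, -2.28 and -3.57. These differences also moved with the level in NAc. Mean Cx3cr1 at P7, P30 and P60 was 303, 299 and 64.7 in NAc and 67.5, 182 and 264 in SNc. Mean Gad1 was 2.60, 7.37 and 22.1 in NAc and 12.9, 0.791 and 0.847 in SNc. Striatal projection neuron genes were lower in SNc at P30 as well (median -1.94), against -0.30 at P7, and none of them differed between ages by the test. Library titles carry a prefix and an identifier that differ between the ages and are shared within each. What they stand for is not stated, and in these contrasts they cannot be told apart from the age. Without VTA P30 replicate 3 the counts were 546 against P7 and 98 against P30.

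**Figure D5:**
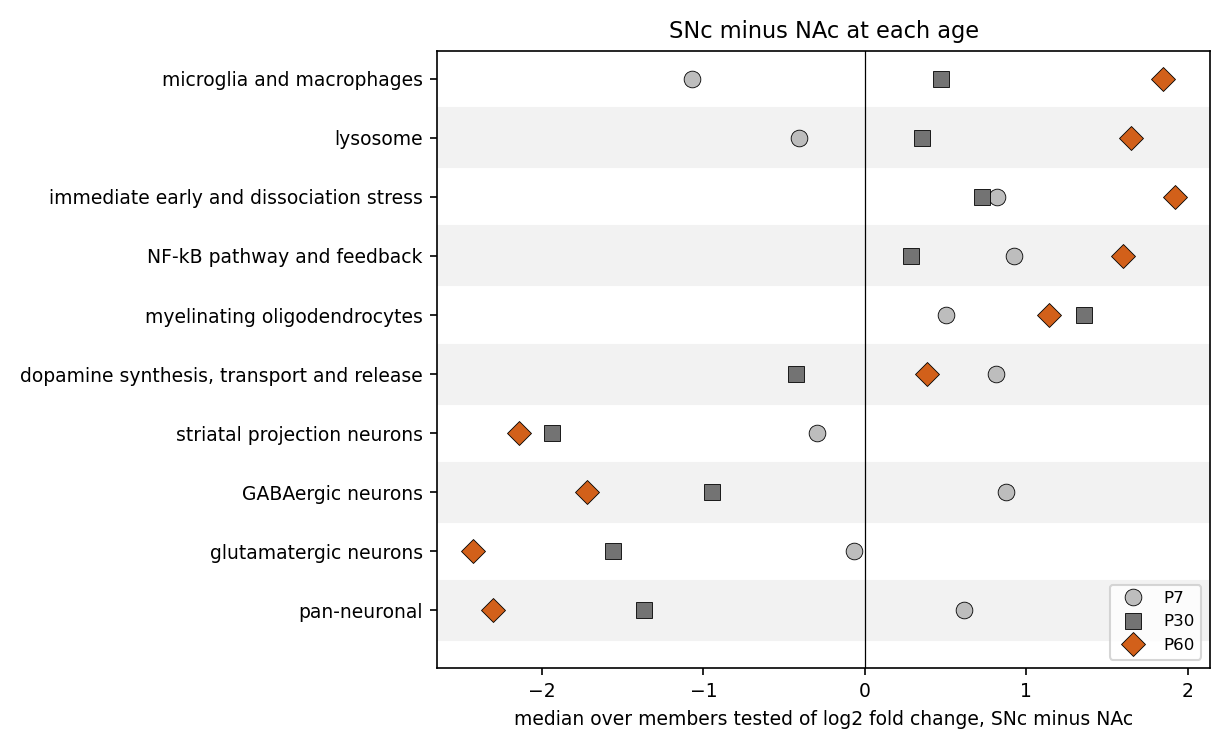
Median log2 fold change (SNc minus NAc) of the tested members of 10 gene lists at P7 (light circles), P30 (dark squares) and P60 (orange diamonds). The microglia list goes from -1.07 to 1.85 and the pan-neuronal list from 0.62 to -2.30 between P7 and P60.

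The VTA, the midbrain region beside the SNc, was sampled at the same age. VTA levels are given as mean ± SD of 3 libraries, and no test of them against SNc is reported here. Tnf was at 186 ± 85.3 and Nfkbia at 1654 ± 840.2. Camk2a was at 9.72 ± 2.97 and Bcl11b at 1.20 ± 1.06. Mbp had a VTA level of 117 ± 26.6.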

How the data were processed

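The series has 27 SMART-seq2 libraries, made from DAT+ cells sorted from C57/BL6 mice. HISAT2 and GRCm38/mm10 are named in the submitters' processing notes. Not given in the sources used here were counter, annotation and filters. FPKM values were deposited for 54532 genes in 26 libraries by the authors, and for VTA P30 replicate 3 a score proportional to FPKM. The table's gene_length column gives each gene's length. The gene IDs had lost a capital letter, which was restored, and 54495 matched GENCODE M21, which gave symbols.

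Each library was rescaled so that value times length in kb sums to 1000000. Whole reads were recovered in 100.0% of the nonzero values with few enough reads to be checked (tolerance 0.02). Those of abundant genes were rounded without this check. The test covered the 18888 genes that reached 1 in 3 or more libraries. limma 3.58.1 (R 4.3.3, statmod 1.5.0; lmFit, and eBayes with trend and robust) modelled log2(value + 1) by group over all 27 libraries, with Benjamini-Hochberg adjusted p-values called under 0.05. This scale understates the change of low genes. No count test was used, and voom on recovered reads was an alternative. The script was tested on simulated data. Python 3.11.15, numpy 2.4.6, pandas 2.3.3 and matplotlib 3.10.9 were used.

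Members and gene lists were chosen with earlier results of these data known. Named genes were those called without overlap at a mean of at least 5, the 12 largest in each direction, up to 4 members of each list with at least 3 calls, the 2 highest members of other lists, and 8 markers. Genes named beyond this rule were chosen after their values were seen. Replicate numbers are shared between regions but were not used for pairing. The 6 replicate pairs within a region differed by more than counting error. Floors cover counting error only. Promoters are from RefSeq. Some list members are counted but not reported singly here.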

Additional observations from a re-analysis of the deposited data

Results flagged for a closer look

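The SNc minus NAc difference at P60 differed from that at P7 for 174 genes and from that at P30 for 16, each by a test of the difference itself in the joint limma fit. The named genes among them follow, as the P60 difference minus the earlier one on the log2 scale. A change of this difference can come from the level in either region.

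For the microglial and lysosomal genes among them the SNc minus NAc difference was higher at P60 than at P7. The change was 4.46 for Cx3cr1, 4.26 for Selplg and 4.19 for Tmem119. It was 3.38 for Ctss, 3.71 for Ctsd and 3.20 for Lgmn. Arl11 had 7.22, Glipr1 5.44 and Trac 4.88.

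For the neuronal genes among them the SNc minus NAc difference was lower at P60 than at P7. The change was -5.50 for Gad1, -4.63 for Crym, -4.58 for Cnih2 and also -4.58 for Ddn. It was -4.29 for Lrrc10b, -4.20 for Syt1, -4.17 for Nap1l2 and -3.82 for Stmn2. It was -3.79 for Camk2a, -3.46 for Eno2 and -3.28 for Syp. Nr4a2, a dopaminergic and activity-induced factor, had -5.45. Its log2 fold change was 4.38 at P7 and -1.06 at P60. The hormone gene Avp had -10.5 and Gh had -4.99. At P7 the SNc libraries scattered widely for Avp, at 382.5 ± 571.8 (mean ± SD), against 1.23 ± 0.737 in NAc.

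Against P30, Trac had 5.72. Ttr, the transthyretin of the choroid plexus, had -12.2, with log2 fold changes of 8.39 at P30 and -3.79 at P60. At P30 the SNc libraries scattered widely for Ttr, at 3025 ± 4132 (mean ± SD), against 3.43 ± 3.51 in NAc. At P60 it was at 475, 258 and 2192 in NAc and at 57.3, 19.9 and 82.9 in SNc.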

How the results depend on the processing

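No gene that was called, among those named, reversed its sign under the 16 alternatives. Several of the alternatives cannot reverse the sign of such a gene, so this says little about the calls. Of the 110 genes covered by the naming rule 16 changed sign in at least one, none of them called (among them Th, Nr4a2, Cbr2, Pf4, Ifitm3 and Vtn). Genes called higher numbered 127 and lower 344, and they were 32 and 47 with a pseudocount of 0.1, 692 and 1203 with voom on recovered reads, and 0 and 0 with the compared groups alone. They were 436 and 583 without VTA P30 replicate 3. The number higher was 82 with no filter, 275 with quantile normalization and 338 without the 4 libraries that stood apart. The share of calls that were higher was 26.96%, against 36.5% with voom, 38.6% with quantile normalization, 40.5% with the smaller pseudocount and 45.7% without the 4 libraries. voom moved the median of all genes by 0.16. Leaving out single libraries gave 57 to 163 higher and 101 to 449 lower.

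The 174 genes that differed from P7 became 584 with the compared groups alone, 32 with a pseudocount of 0.1, 320 with quantile normalization, 2767 with voom, 625 without the 4 libraries and 546 without VTA P30 replicate 3, and 96 to 304 in the leave-outs. The 16 that differed from P30 became 0 with the compared groups alone, 26 with quantile normalization, 281 with voom, 152 without the 4 libraries and 98 without VTA P30 replicate 3. They were 9 on the deposited scale, where VTA P30 replicate 3 kept its other unit. They were also 9 with the stricter filter, and 8 to 48 in the leave-outs. The causes were not tested.

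With a replicate block within each age the counts were 104 higher and 251 lower, 83 against P7 and 4 against P30. Same-numbered libraries correlated at 0.057, 0.119 and 0.143 in their deviations, each library best with its own number, and the numbers do not pair the samples by the labels. Differences under the limit of 3 reads per library cannot be read.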

Other observations

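Some genes of the leptomeninges and choroid plexus were lower in SNc. They were picked after their values were seen, so their count supports nothing. None of 8 genes of another list, of ependyma and choroid plexus, was called (median log2 fold change -0.11, 4 positive and 4 negative). Of the 8 picked, 6 were called (Slc13a4, Slc22a6, Aldh1a2, Fmod, Ogn and Kcnj13). Slc13a4, a sulfate transporter, was at 8.85, 18.6 and 2.81 in NAc and 0.359, 0 and 0 in SNc. Fmod, fibromodulin, was at 6.97, 22.0 and 15.6 against 0.922, 0 and 1.48. Ptgds, prostaglandin D2 synthase, was at 1297, 764 and 1327 against 136, 181 and 390, without overlap and without a call (limma adjusted p = 0.282).

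Of 8 hormone genes of the hypothalamus and pituitary, also picked after their values were seen, 2 were called. Avp, vasopressin, was at 80.2, 75.4 and 170 against 2.29, 0.975 and 16.4, and Gh, growth hormone, at 47.2, 17.1 and 52.8 against 2.36, 0 and 1.63. Both were called lower in SNc. Oxt, oxytocin, was at 23.1, 2.78 and 13.2 against 1.70, 0 and 1.30 and was not called (adjusted p = 0.188), and Prl, prolactin, was at 0, 0 and 1.22 against 0 in all 3. Pomc, the precursor of corticotropin, overlapped at 7.83, 0 and 23.8 against 7.17, 0.61 and 1.53. Pmch, melanin-concentrating hormone, went the other way without a call, at 2.31, 0 and 0.481 against 3.39, 9.34 and 2.34. Hcrt and Cga were at 0 in at least 4 of the 6 libraries.

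The T cell receptor joining segment Traj27, next to Trac in the alpha locus, was at 0 in all 3 NAc libraries and at 8.61, 248 and 0 in SNc. Trbc1, a constant region of the beta chain, was at 0 in all 6. Trbc2, a further constant region of that chain, was at 4.025, 0 and 0 in NAc and at 0, 0 and 0 in SNc.

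Cx3cl1, fractalkine, the neuronal ligand of Cx3cr1, was at 89.2, 45.9 and 25.3 in NAc and at 5.66, 0.839 and 8.94 in SNc (log2 fold change -3.28 ± 0.63, adjusted p = 0.00643), opposite in direction to its receptor.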
